A study of Saccharomyces cerevisiae with 6 samples.

Results

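Chromosome III of Saccharomyces cerevisiae was described here through its 1-kb bins and through 5-kb windows placed at 15 named replication origins. The origins were chosen by name and by an approximate position in kb on build sacCer3, not by a cut on measured values. Earlier results of these data were known when they were chosen. A window is the 1-kb bin that holds the listed position together with the 2 bins on each side of it, and 1 window stands for the ARS302, ARS303 and ARS320 cluster. Of the 316 bin positions of the chromosome, 309 had a count in at least 1 library, and 292 of these were kept for analysis, out of 11273 kept bins among 11579 in the nuclear genome. A window or stretch was measured if it held at least 3 kept bins, which left 13 of the 15 windows and all 11 stretches between them.

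Budding yeast origins lie within autonomously replicating sequences (ARS), short elements bound by the origin recognition complex, ORC. In G1 phase ORC loads the MCM helicase onto DNA, and in S phase a subset of the loaded origins fires, each at a characteristic time. Chromosome III has long served for mapping yeast origins, and it carries the mating-type locus MAT and the silent cassettes HML and HMR near its ends, where ORC also takes part in gene silencing.

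The 6 libraries came from whole-genome sequencing of genomic DNA of strain W303-1a, with 1 library for each of 3 Orc2 genotypes and 2 times. The genotypes were orc2ΔN200, labelled as Orc2 without its 200 N-terminal residues, orc2-I194E, which by its name carries glutamate in place of isoleucine at 1 residue of Orc2, and WT Orc2. S-phase cells were harvested 30 min after release from α-factor, and G1 cells at 0 min. According to the growth protocol all strains also shared the same regime: growth in YPG, arrest in nocodazole in YPD, under which orc2-1 is depleted, and a second α-factor arrest before release, with sodium azide added at harvest. WT is therefore a strain taken through the same depletion, and each genotype rests on 1 culture harvested at 1 time after release. Slower entry into S phase and less firing at a given origin cannot be told apart at a single time.

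The copy level of a window is its count per kept bin divided by the mean count per kept nuclear bin of the same library. The S/G1 value is the log2 of the S copy level over the G1 copy level of the same strain, so a value of 0 is the mean of the genome and a positive value means more copies in S phase than the mean. Depth ranged from 3235720 to 3376203 counts per library, of which 76780 to 83905 fell in kept bins of chromosome III, with a median of 264.5 to 290 per bin. Measured windows held 846 to 1760 counts in each library, and the difference between 2 strains at a window had a counting standard error (SE) of 0.074 to 0.095 on the log2 scale. With 1 library per group no difference has a replicate check and no p-value is given. All intervals are 95% intervals that cover counting error only, and reads may not be independent molecules.

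The labels were checked on chromosome III at LEU2, a leucine biosynthesis gene often used as a marker in strain construction. The bin from 91001 to 92000 stood at 1.69 times the mean of the bins within 20 kb of it in the orc2ΔN200 S library and at 1.80 times in the orc2ΔN200 G1 library. It stood at 2.43 times (2.24 to 2.63) in S and 1.61 times (1.46 to 1.77) in G1 in the orc2-I194E libraries, against 1.73 times (1.59 to 1.89) in S and 2.57 times (2.38 to 2.77) in G1 in the WT libraries. The orc2-I194E S library thus resembled the WT G1 library, and the WT S library resembled the orc2-I194E G1 library. The level of this marker crosses between the libraries labelled orc2-I194E and WT, and labels alone do not settle which library belongs to which strain. The results below follow the labels. Those at origin windows, stretches, CEN3 and the right end are given again with the S libraries, or the G1 libraries, of orc2-I194E and WT exchanged. For the 20 kb around CEN3 and the right end this covers the differences from WT only. The local contrasts, the highest and lowest windows and the left 30 kb are given as labelled only. So are the values of whole chromosomes and all ranks among chromosomes, centromeres and chromosome ends. Because every difference from WT uses the library labelled WT, an exchange also touches the orc2ΔN200 differences.

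Bins without usable counts lay at repeats and at the mating-type loci. At YCL019W, a gene of a Ty retrotransposon beside LEU2, the bins from 86001 to 90000 had no count in any library. Over HML, the bin from 12001 to 13000 held 0 or 1 count and the next bin 8 to 22. At MAT the bin from 199001 to 200000 held 0 or 1 count and the next one held none, so the mating-type genes themselves were not measured at HML or MAT. HMR was measured: its bins were kept, at 0.74 and 1.06 times their flanks in the orc2ΔN200 S library, at 0.74 and 1.14 times in the orc2-I194E S library and at 0.86 and 1.33 times in the WT S library. In the G1 libraries they stood at 0.75 and 1.08 times in orc2ΔN200, at 0.79 and 1.31 times in orc2-I194E and at 0.88 and 1.04 times in WT. In the HMR bin from 294001 to 295000 the WT S library was thus closest to the orc2-I194E G1 library, the same pair as at LEU2 with counting intervals that partly overlap those of the other libraries, and this bin lies in the ARS317 and ARS318 windows. These 3 loci share sequence, and how reads that match more than 1 place were assigned is not given in the sources used here. The gene table places MATALPHA1 and MATALPHA2 at MAT, where W303-1a differs from the reference build. Whether the HMR bins also hold reads from the strain's own MAT locus was not tested. The ARS301 window at HML and the ARS319 window at the right end kept 1 bin each, the ARS319 window being shortened to 3 bins by the end of the chromosome, and no S/G1 value is given for either.

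Along chromosome III both mutants differed from WT in opposite directions at different places. Over the middle of the chromosome, around the centromere CEN3, S-phase copy relative to G1 was higher in WT. Towards HMR and the right end it was higher in both mutants. The origins of the left arm between ARS305 and ARS306 had S-phase copy above the genome mean in all 3 strains. The patterns at CEN3 and at HMR are as labelled. With the S libraries of orc2-I194E and WT exchanged both turn direction in orc2-I194E. In orc2ΔN200 the differences at ARS317 and from ARS308 to ARS309 then come close to 0. That from ARS316 to ARS317 turns from 0.23 to -0.14. At ARS307 and ARS308 the orc2ΔN200 differences turn sign at nearly the same size, from -0.15 to 0.15 and from -0.12 to 0.11. Both patterns ran over stretches wider than a window and were not restricted to the windows at origins.

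**Figure D1:**
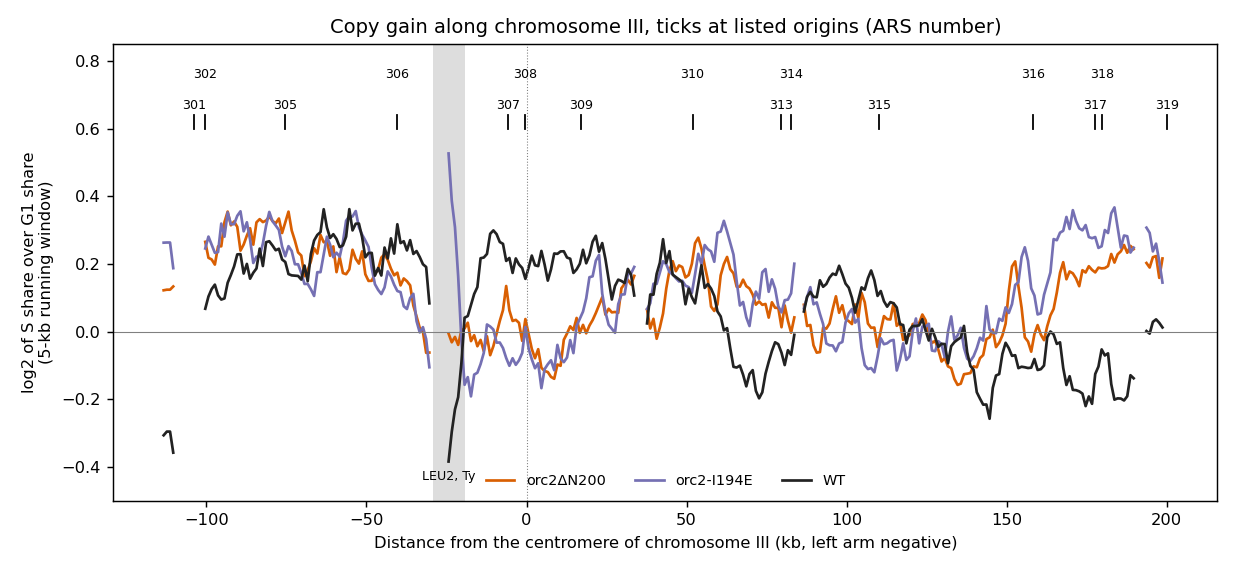
The log2 S/G1 value in 5-kb running windows is plotted against the distance from CEN3 in kb for orc2ΔN200, orc2-I194E and WT, with the listed origins marked. Both mutants lie near 0 around CEN3, where WT averages 0.20, and both lie above WT over the last 30 kb on the right.

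On the left arm, ARS305 is a strong, early origin with LRE1 and APA1 in its window (37001 to 42000). Its copy level was 1.18 in S and 0.94 in G1 in orc2ΔN200, 1.10 in S and 0.94 in G1 in orc2-I194E, and 1.17 in S and 1.01 in G1 in WT. The S/G1 values were 0.32 (0.22 to 0.43) in orc2ΔN200, 0.22 (0.11 to 0.33) in orc2-I194E and 0.21 (0.099 to 0.31) in WT. All 3 intervals lay above 0, and the differences from WT of 0.12 (-0.033 to 0.27) in orc2ΔN200 and 0.017 (-0.14 to 0.17) in orc2-I194E had intervals that include 0. ARS305 was the highest of the 13 windows in orc2ΔN200.

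ARS306, the other well-studied early origin of the left arm, has FUS1, which acts in mating cell fusion, and AGP1, an amino acid permease, in its window (72001 to 77000). Its copy level was 1.22 in S and 1.08 in G1 in orc2ΔN200, 1.16 in S and 1.07 in G1 in orc2-I194E, and 1.32 in S and 1.06 in G1 in WT. At 0.32 (0.21 to 0.42) it was the highest window of WT, and it exceeded 99.5% of all 5-kb windows of the WT genome, both as labelled. With the S libraries exchanged WT stood at 0.14 there and was highest at ARS318, at 0.25. The mutants stood at 0.17 in orc2ΔN200 and 0.12 in orc2-I194E. Their differences from WT were -0.14 (-0.29 to 0.0013) in orc2ΔN200 and -0.20 (-0.34 to -0.051) in orc2-I194E. The interval is clear of 0 in orc2-I194E and reaches just past it in orc2ΔN200. In a 3-kb window the orc2-I194E difference was -0.11, with an interval that includes 0.

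ARS307 lies between ARS306 and the centromere, in a window (107001 to 112000) with VMA9, a subunit of the vacuolar proton pump, and PGS1, an enzyme of cardiolipin synthesis. Its copy level was 1.05 in S and 1.01 in G1 in orc2ΔN200, 0.97 in S and 1.04 in G1 in orc2-I194E, and 1.20 in S and 1.03 in G1 in WT. S-phase copy was above G1 copy in WT and orc2ΔN200 and below it in orc2-I194E. The S/G1 values were 0.063 in orc2ΔN200, -0.10 in orc2-I194E and 0.22 in WT, and the differences from WT were -0.15 (-0.31 to -0.0044) in orc2ΔN200 and -0.32 (-0.47 to -0.17) in orc2-I194E. In a 3-kb window the orc2ΔN200 difference from WT was -0.052, with an interval that includes 0. ARS307 was the only measured window where the difference between the mutants had an interval clear of 0, orc2-I194E minus orc2ΔN200 being -0.16 (-0.32 to -0.0093).

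ARS308 coincides with CEN3, the centromere, in the window from 112001 to 117000. The copy level was 1.01 in S and 0.98 in G1 in orc2ΔN200, 1.00 in S and 0.99 in G1 in orc2-I194E, and 1.17 in S and 1.05 in G1 in WT. S and G1 levels were close in both mutants and apart in WT. The S/G1 values were 0.037 in orc2ΔN200, 0.014 in orc2-I194E and 0.16 in WT, and the differences from WT of -0.12 (-0.27 to 0.033) in orc2ΔN200 and -0.14 (-0.30 to 0.010) in orc2-I194E did not clear 0 at the depth of a single window. In a 3-kb window they were -0.17 in orc2ΔN200, with an interval that includes 0, and -0.21 in orc2-I194E, with an interval below 0.

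ARS309, on the right arm, lies among SAT4, RVS161, ADY2 and ADP1 (130001 to 135000). RVS161 encodes an amphiphysin-like protein of endocytosis, and SAT4 a protein kinase of salt tolerance. The copy level at ARS309 was 1.05 in S and 1.04 in G1 in orc2ΔN200, 1.03 in S and 0.99 in G1 in orc2-I194E, and 1.22 in S and 1.03 in G1 in WT. Only WT had an S level well apart from its G1 level, with an S/G1 value of 0.24 (0.14 to 0.35), beside 0.020 in orc2ΔN200 and 0.059 in orc2-I194E. The differences from WT were -0.22 with SE 0.076 in orc2ΔN200 and -0.18 with SE 0.077 in orc2-I194E, and both intervals, -0.37 to -0.072 in orc2ΔN200 and -0.33 to -0.031 in orc2-I194E, lay below 0. In a 3-kb window the differences were -0.23 in orc2ΔN200 and -0.18 in orc2-I194E, and the orc2-I194E interval then included 0.

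Farther along the right arm, ARS310 and ARS315 are active origins as well. At ARS310 (164001 to 169000, with NPP1 and the small GTPase gene RHB1) the S/G1 values were 0.20 in orc2ΔN200, 0.11 in orc2-I194E and 0.10 in WT, which is within counting error of WT for both mutants. For orc2ΔN200 this depends on placement. The overlapping 5 kb from 165001 to 170000 gave a difference from WT of 0.18 (0.023 to 0.33). Windows of 3 kb and 11 kb gave 0.12 and 0.072, with intervals that include 0. At ARS315 (223001 to 228000, with PWP2, a gene of ribosome assembly, and the serine tRNA gene SUP61) the S/G1 values were 0.0025 in orc2ΔN200, -0.020 in orc2-I194E and 0.12 in WT. The differences from WT there were -0.12 in orc2ΔN200 and -0.14 in orc2-I194E. In orc2-I194E the G1 level of this window was itself low, at 0.86 against 0.95 in the WT G1 library, and its S level was 0.85 against 1.03 in the WT S library.

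The weak or seldom used origins ARS313, ARS314 and ARS316 had low values in WT. ARS313 and ARS314 lie beside MAT and their windows share 2 bins. The S/G1 value of ARS313 was 0.013 in orc2ΔN200, 0.057 in orc2-I194E and -0.062 in WT, and that of ARS314 was -0.0032 in orc2ΔN200, 0.11 in orc2-I194E and -0.069 in WT. Both mutants stood above WT there, mostly within counting error in 5-kb windows. In a 3-kb window the ARS313 difference from WT in orc2ΔN200 was 0.23, with an interval clear of 0, against 0.075 in the 5-kb window. ARS316 (271001 to 276000, with the mating-induced adhesin gene FIG2 and the kinase gene KIN82) stood at -0.0077 in orc2ΔN200, 0.11 in orc2-I194E and -0.081 in WT. In 5-kb windows the differences with intervals above 0 were both in orc2-I194E, at ARS314 with 0.18 (0.0078 to 0.36) and at ARS316 with 0.19 (0.033 to 0.34). In a 3-kb window the ARS316 difference in orc2-I194E was 0.11, with an interval that includes 0.

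As labelled, ARS317 at HMR stood farthest from WT of all measured windows in both mutants. ARS317 is the ARS element of the HMR-E silencer and ARS318 that of HMR-I, and ARS317 on the chromosome is known as a silent or late origin. The ARS317 window (290001 to 295000), which covers HMRA1 and HMRA2, had a copy level of 1.09 in S and 0.96 in G1 in orc2ΔN200, 1.20 in S and 0.99 in G1 in orc2-I194E, and 0.95 in S and 1.03 in G1 in WT. In both mutants the S level was above the G1 level, and in WT it was below. The S/G1 values were 0.17 in orc2ΔN200, 0.28 in orc2-I194E, where it was the highest of the 13 windows, and -0.13 in WT, where it was the lowest. The differences from WT were 0.30 (0.15 to 0.46) in orc2ΔN200 and 0.40 (0.25 to 0.56) in orc2-I194E.

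The ARS318 window shares 3 bins with that of ARS317, so it adds little that is separate. It stood at 0.19 in orc2ΔN200, 0.25 in orc2-I194E and -0.053 in WT, with differences from WT of 0.24 in orc2ΔN200 and 0.30 in orc2-I194E. In a 3-kb window these differences were 0.19 in orc2ΔN200 and 0.18 in orc2-I194E, with intervals that include 0. At the other silent cassette, the cluster of ARS302, ARS303 and ARS320 beside HML kept 3 bins of 5, and these reach over CHA1, a serine deaminase gene. Its copy level was 1.25 in S and 1.04 in G1 in orc2ΔN200, 1.28 in S and 1.08 in G1 in orc2-I194E, and 1.19 in S and 1.14 in G1 in WT. The S/G1 values were 0.27 (0.13 to 0.40) in orc2ΔN200, 0.25 (0.11 to 0.38) in orc2-I194E and 0.068 (-0.066 to 0.20) in WT. The differences from WT were 0.20 (0.011 to 0.38) in orc2ΔN200 and 0.18 (-0.0083 to 0.36) in orc2-I194E. In a 3-kb window the orc2ΔN200 difference was 0.087, with an interval that includes 0. The orc2-I194E difference was then 0.24, with an interval clear of 0. The S levels of the 3 strains were close here, and the G1 levels were lower in the mutants, by a log2 difference from WT of -0.13 in orc2ΔN200 and -0.071 in orc2-I194E.

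**Figure D2:**
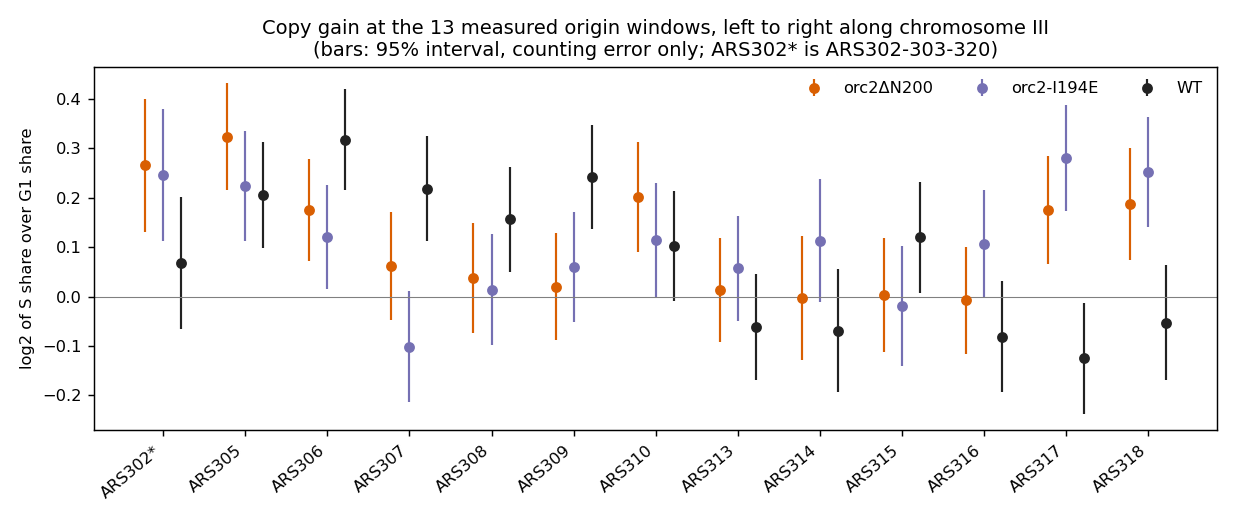
The log2 S/G1 value of each measured origin window is plotted in order along the chromosome for orc2ΔN200, orc2-I194E and WT, with bars for 95% counting intervals. At ARS309 WT stands at 0.24 above both mutants, and at ARS317 WT stands at -0.13 below both.

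Counted at a log2 difference of at least 0.15, a fold of 1.11, orc2ΔN200 was below WT at 2 of 13 windows, ARS307 and ARS309, where 16.6% of all 5-kb windows of the genome were, and above WT at 3 windows, where 17.9% of the genome was. The 3 were the ARS302 cluster, ARS317 and ARS318. In orc2-I194E, 3 windows were below, ARS306, ARS307 and ARS309, beside 20.4% of the genome, and 5 were above, the ARS302 cluster, ARS314, ARS316, ARS317 and ARS318, beside 19.8% of the genome. These shares of windows at named origins are near those of the genome for orc2ΔN200 in both directions and for orc2-I194E below WT, and with windows that overlap the 5 above WT are fewer than 5 separate places. Between the G1 libraries, which hold no S-phase cells by label, no window differed from WT by 0.15 in either mutant, where 2.06% of the genome did for orc2ΔN200 and 2.26% for orc2-I194E.

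The median S/G1 value over the 13 windows was 0.063 in orc2ΔN200, 0.11 in orc2-I194E and 0.10 in WT. Over the windows the median difference from WT was 0.073 in orc2ΔN200 and 0.017 in orc2-I194E, next to -0.0041 in orc2ΔN200 and -0.0035 in orc2-I194E over the genome. Origins of the left arm had a median of 0.17 in orc2ΔN200, 0.12 in orc2-I194E and 0.22 in WT, and those of the right arm, ARS309, ARS310 and ARS315, had 0.020 in orc2ΔN200, 0.059 in orc2-I194E and 0.12 in WT. The HMR pair had 0.18 in orc2ΔN200, 0.27 in orc2-I194E and -0.089 in WT. The spread by position, from the left arm to HMR, was thus wider than any shift common to all windows. Across the 13 windows, as a description of places that overlap in part, the Pearson correlation between S/G1 values was 0.70 for orc2ΔN200 with orc2-I194E, 0.19 for orc2ΔN200 with WT and -0.41 for orc2-I194E with WT. With the S libraries exchanged these were 0.21, 0.61 and -0.49, and with the G1 libraries exchanged 0.61, 0.21 and -0.49, for the same pairs.

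Exchanging libraries changed these differences. Shares of the genome are given as labelled only. Counts of windows or stretches with libraries exchanged, and under the other alternatives below, therefore have no background beside them. With the S libraries of orc2-I194E and WT exchanged, orc2-I194E was below WT at 3 windows, ARS316, ARS317 and ARS318, and above it at 7. In that setting orc2ΔN200 was below at 0 and above at 4, ARS305, ARS307, ARS310 and ARS315. The ARS317 difference became -0.043 in orc2ΔN200 and -0.28 in orc2-I194E, and the ARS309 difference became 0.017 in orc2ΔN200 and 0.30 in orc2-I194E. With the G1 libraries exchanged instead, orc2-I194E was below WT at 7 windows and above it at 3, ARS316, ARS317 and ARS318, and orc2ΔN200 was below at 3, ARS308, ARS309 and ARS315, and above at 2, ARS317 and ARS318. The direction at HMR and at ARS309 therefore holds as labelled and with the G1 libraries exchanged. With the S libraries exchanged it turns in orc2-I194E, while the orc2ΔN200 differences at ARS317 and ARS309 come close to 0. Only the values of orc2ΔN200 against 0 use no library whose label is in question.

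**Figure D3:**
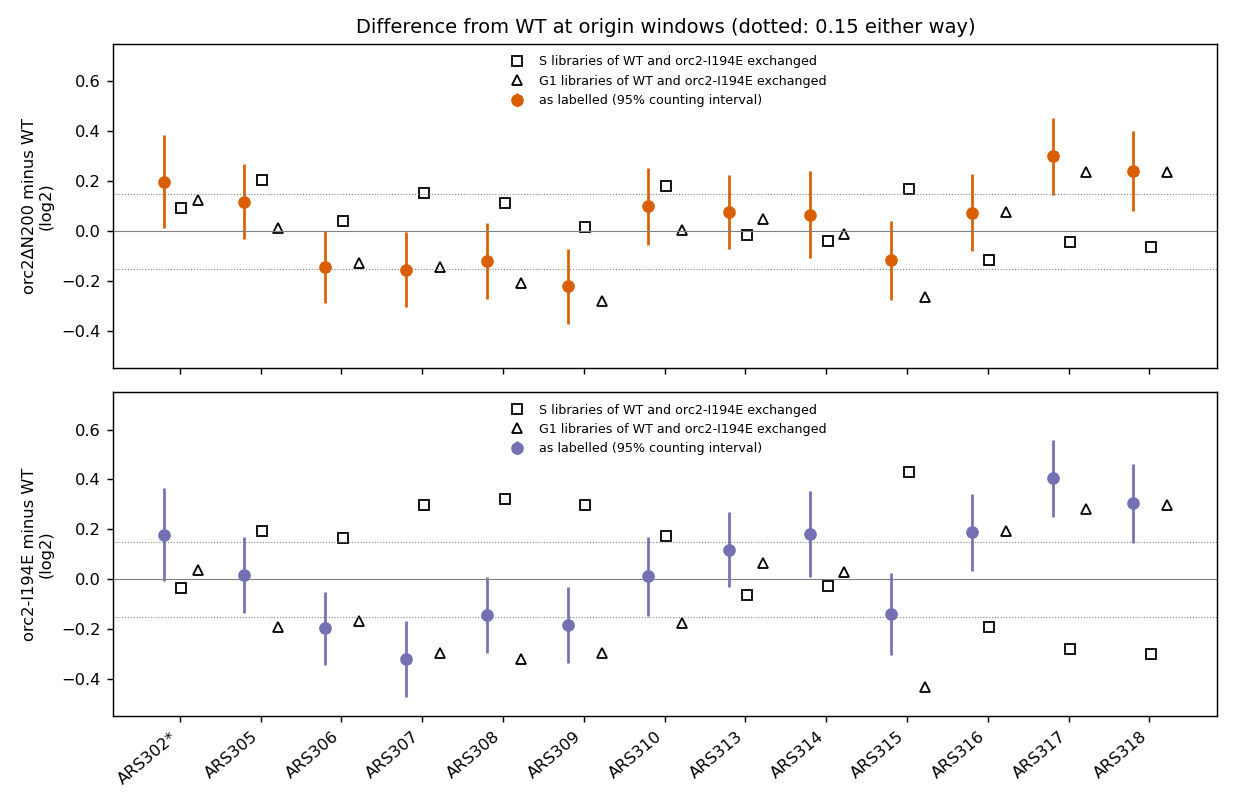
The log2 difference in S/G1 from WT at each measured window is plotted for orc2ΔN200 and orc2-I194E as labelled, with 95% counting intervals, and with the S or the G1 libraries of orc2-I194E and WT exchanged. At ARS317 the values as labelled are 0.30 in orc2ΔN200 and 0.40 in orc2-I194E, and with the S libraries exchanged both lie below 0.

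The stretches between windows carried differences as large as those at origins. From ARS308 to ARS309, a stretch with CDC10, a septin gene, the S/G1 value was -0.085 in orc2ΔN200, -0.10 in orc2-I194E and 0.21 in WT, with differences from WT of -0.30 in orc2ΔN200 and -0.32 in orc2-I194E. Next to it on the left, the stretch from ARS306 to ARS307 holds the LEU2 and Ty bins. Without the bins from 85 to 93 kb it stood at -0.00049 in orc2ΔN200, -0.046 in orc2-I194E and 0.17 in WT, with differences of -0.17 (-0.25 to -0.10) in orc2ΔN200 and -0.22 (-0.29 to -0.15) in orc2-I194E. With those bins the differences were -0.080 in orc2ΔN200 and -0.029 in orc2-I194E. Leaving out those bins moved the differences further below WT.

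Towards the right end the order of the strains was the other way round. From ARS316 to ARS317 the S/G1 value was 0.12 in orc2ΔN200, 0.26 in orc2-I194E and -0.10 in WT, with differences from WT of 0.23 in orc2ΔN200 and 0.36 in orc2-I194E. From ARS318 to ARS319, with GIT1, a glycerophosphoinositol permease gene, it was 0.23 in orc2ΔN200, 0.27 in orc2-I194E and -0.096 in WT, with differences from WT of 0.32 in orc2ΔN200 and 0.36 in orc2-I194E. The stretch from the left end to ARS301, which kept 4 bins, stood at 0.12 in orc2ΔN200, 0.26 in orc2-I194E and -0.30 in WT, with differences from WT of 0.42 in orc2ΔN200 and 0.56 in orc2-I194E. In these 3 stretches WT was below the genome mean and both mutants were above it, although at the left end the orc2ΔN200 interval (-0.0066 to 0.25) includes 0. WT was not low throughout either end: it stood above 0 in the ARS302 cluster window on the left and near 0 in the last windows on the right. From ARS310 to ARS313 the value was 0.14 in orc2ΔN200, 0.19 in orc2-I194E and -0.032 in WT.

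Elsewhere the strains lay closer. The stretch from the ARS302 cluster to ARS305 was high in every strain, at 0.29 in orc2ΔN200, 0.31 in orc2-I194E and 0.19 in WT, and so was that from ARS305 to ARS306, at 0.21 in orc2ΔN200, 0.21 in orc2-I194E and 0.24 in WT. From ARS309 to ARS310 the values were 0.097 in orc2ΔN200, 0.14 in orc2-I194E and 0.17 in WT. The stretch from ARS314 to ARS315 stood at 0.043 in orc2ΔN200, 0.0001 in orc2-I194E and 0.13 in WT. The long stretch from ARS315 to ARS316 was near 0 in every strain, at -0.021 in orc2ΔN200, -0.0001 in orc2-I194E and -0.054 in WT. Of the 11 stretches, each mutant was at least 0.15 below WT at 1 and above it at 4, and without the LEU2 and Ty bins each was below at 2. Among 5-kb windows of the genome the shares were 16.6% below and 17.9% above for orc2ΔN200, and 20.4% below and 19.8% above for orc2-I194E, and stretches differ from these in length.

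The stretches changed under exchange as the windows did. With the S libraries exchanged, orc2ΔN200 was past 0.15 at 0 stretches in either direction, and orc2-I194E was below WT at 3, among them the left end and ARS318 to ARS319, and above it at 3. With the G1 libraries exchanged, each mutant was below WT at 3 and above it at 3. From ARS308 to ARS309 the difference was then -0.31 in orc2ΔN200 and -0.35 in orc2-I194E, and from ARS306 to ARS307 it was -0.21 in orc2ΔN200 and -0.30 in orc2-I194E. From ARS316 to ARS317 it was 0.23 in orc2ΔN200 and 0.37 in orc2-I194E. The stretch from ARS310 to ARS313 was no longer past 0.15, at 0.12 in orc2ΔN200 and 0.13 in orc2-I194E.

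**Figure D4:**
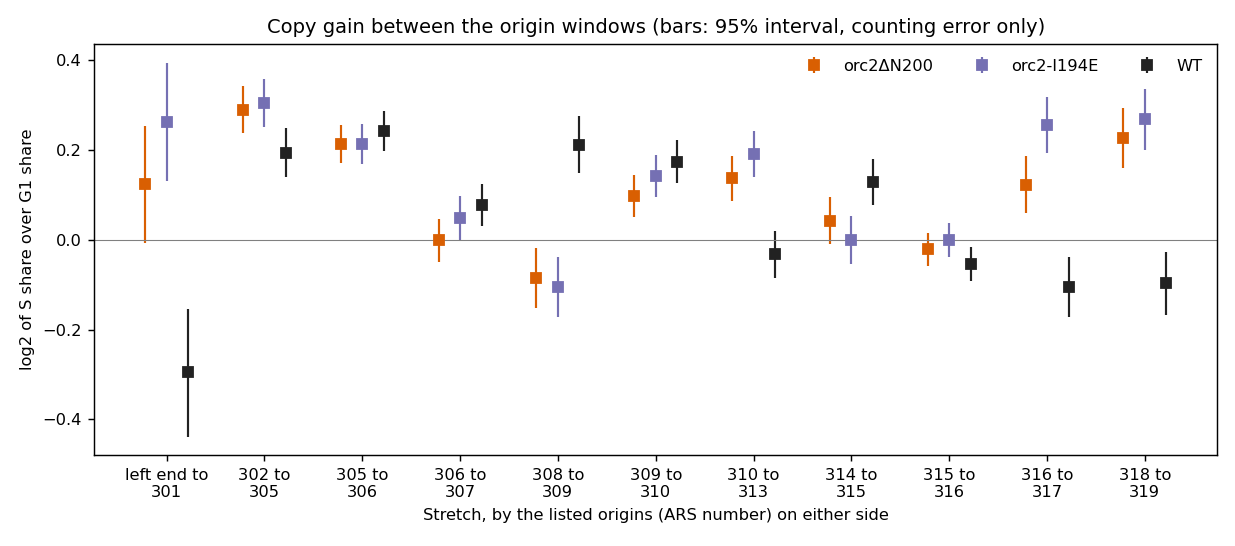
The log2 S/G1 value of each of the 11 stretches between origin windows is plotted in order along the chromosome for orc2ΔN200, orc2-I194E and WT, with bars for 95% counting intervals. WT is at 0.21 above both mutants from ARS308 to ARS309 and below both at the 2 ends of the chromosome.

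At the listed positions, and at the depth of a single window, the origins hardly stood out from their flanks. The local contrast of a window, its S/G1 value minus that of the 10 kb on each side, had a median of 0.013 in orc2ΔN200, -0.030 in orc2-I194E and 0.0086 in WT. The only contrast with an interval clear of 0 was that of ARS306 in WT, at 0.13. Contrasts had a counting SE of 0.060 to 0.076, so smaller ones could not be told from 0. Flanks were not cleared of other origins. The ARS307 and ARS308 windows lie in each other's flanks, as do parts of ARS313 with ARS314 and of ARS317 with ARS318. At these windows the contrast does not compare an origin with origin-free DNA. Over running 5-kb windows, which overlap, the SD of the S/G1 value on chromosome III was 0.12 in orc2ΔN200, 0.14 in orc2-I194E and 0.16 in WT. Ratios of a mutant G1 library to the WT G1 library gave, over the same windows, an SD of 0.076 for orc2ΔN200 and 0.073 for orc2-I194E on the chromosome, so the S/G1 profiles varied more than G1 libraries did among themselves.

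The highest and lowest 5-kb windows of the chromosome lay away from the listed positions. In orc2ΔN200 the highest was at MRC1, which encodes a checkpoint protein that travels with the replication fork, 7 kb from the ARS302 cluster. There the S/G1 value was 0.35 in orc2ΔN200, 0.35 in orc2-I194E and 0.14 in WT. Leaving aside windows over the LEU2 and Ty bins, the highest was at GIT1 in orc2-I194E, with 0.20 in orc2ΔN200, 0.37 in orc2-I194E and -0.20 in WT, and at GFD2, 15 kb from ARS306, in WT, with 0.18 in orc2ΔN200, 0.34 in orc2-I194E and 0.36 in WT. The lowest was at FUB1 in orc2ΔN200, at -0.16, at BUD3, a bud site selection gene, in orc2-I194E, at -0.19, and at YCL074W near the left end in WT, at -0.36. With the LEU2 and Ty bins, the window at YCL019W and LEU2 was the highest in orc2-I194E, at 0.53, and the lowest in WT, at -0.38.

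Set against the other 15 nuclear chromosomes, chromosome III as a whole had a high S-phase share. Its S/G1 value was 0.10 (0.087 to 0.11) in orc2ΔN200, 0.12 (0.11 to 0.14) in orc2-I194E and 0.080 (0.065 to 0.094) in WT, which ranked 2 of 16 in each mutant and 4 of 16 in WT. Within 20 kb of CEN3 the value was -0.017 in orc2ΔN200, -0.065 in orc2-I194E and 0.20 in WT. The difference of -0.21 from WT in orc2ΔN200 was the 15th of 16 centromeres from the highest, and that of -0.26 in orc2-I194E was the 16th. A fall below WT was not particular to CEN3. At the other centromeres the median difference was -0.12 in orc2ΔN200 and -0.16 in orc2-I194E. They ranged from -0.22 to 0.045 in orc2ΔN200 and from -0.25 to 0.12 in orc2-I194E. As labelled, WT at CEN3 ranked 7 of 16, and the mutants' values ranked 14 of 16 in both. Ranks were not computed with libraries exchanged. Exchanging the S libraries put the ARS308 window at -0.075 in WT and 0.24 in orc2-I194E. Which strain's values the low rank of the differences goes with therefore rests on the labels.

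The right 30 kb stood at 0.20 in orc2ΔN200, 0.28 in orc2-I194E and -0.12 in WT. Its differences from WT of 0.32 in orc2ΔN200 and 0.39 in orc2-I194E were the highest of 28 chromosome ends in each mutant. The 28 leave out ends with 9 or fewer kept bins. Among those left out was the left end of chromosome X, with differences of 0.26 in orc2ΔN200 and 0.44 in orc2-I194E. At the right end of chromosome III WT ranked 26 of 28, and the mutants ranked 6 in orc2ΔN200 and 5 in orc2-I194E. The left 30 kb stood at 0.25 in orc2ΔN200, 0.30 in orc2-I194E and 0.081 in WT, and its differences of 0.17 in orc2ΔN200 and 0.22 in orc2-I194E ranked 7 of 28 in both mutants. With the S libraries exchanged, the difference over the right 30 kb became -0.016 in orc2ΔN200 and -0.28 in orc2-I194E, and that at CEN3 became 0.082 in orc2ΔN200 and 0.33 in orc2-I194E. With the G1 libraries exchanged, the right 30 kb gave 0.26 in orc2ΔN200 and 0.28 in orc2-I194E, and CEN3 gave -0.25 in orc2ΔN200 and -0.33 in orc2-I194E. The ranks as labelled use the same WT libraries in both mutants and are not independent of each other.

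**Figure D5:**
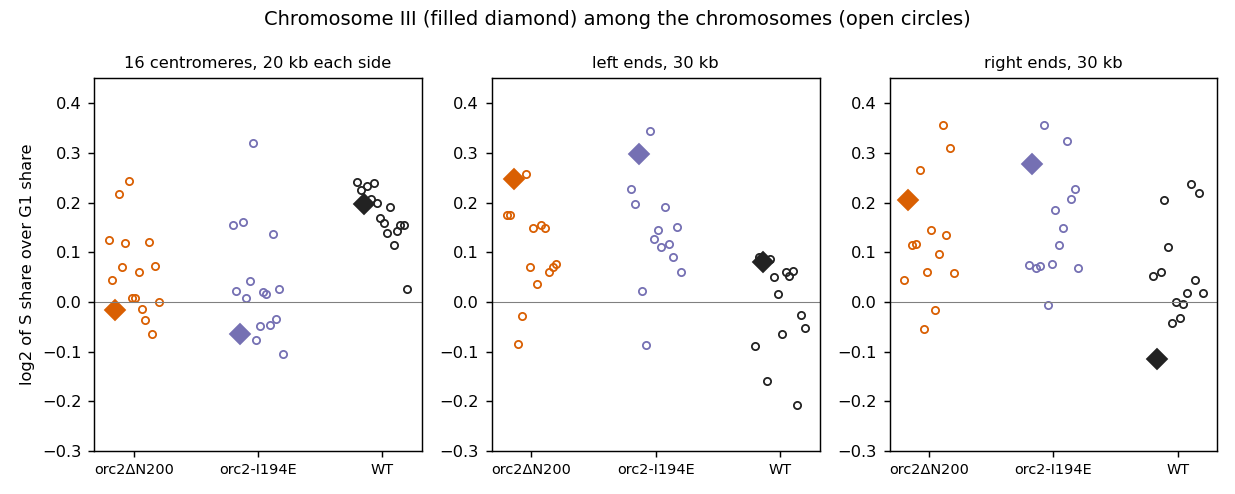
The log2 S/G1 value in orc2ΔN200, orc2-I194E and WT is plotted for the 16 centromeres with 20 kb on each side and for 28 chromosome ends of 30 kb, with chromosome III marked. At the right end of chromosome III the values are 0.20 in orc2ΔN200, 0.28 in orc2-I194E and -0.12 in WT.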

How the data were processed

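The authors deposited a whole-number count for each 1-kb bin of the genome, 1 file per library, and bins with no count are not listed. Bowtie2 2.5.3, Picard 2.27.5, SAMtools 1.18, bedtools 2.31.0, R 4.3.0 and the build sacCer3 are named, per the submitters' processing notes, without their roles. Not given in the sources used here are the filters, the handling of duplicates and multiply matching reads, and the unit counted, single reads or fragments.

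Values were computed with Python 3.11.15, numpy 2.4.6, pandas 2.3.3 and SciPy 1.17.1, and figures drawn with matplotlib 3.10.9. Nuclear bins outside the rDNA (451001 to 490000 on chromosome XII) were kept if every library had a count and each G1 count lay between 0.3 and 3 times its library median. Counts were summed over a window before the ratio of shares was taken, and S/G1 intervals are exact binomial ones. Differences carry intervals of 1.96 SE. Gene names came from a RefSeq gene table of R64 with 6477 genes, 185 of them on chromosome III. No genome sequence was used, so origin sequences are not printed. Members, classes and thresholds were chosen with earlier results of these data known. Named places were all windows and stretches, the marker and mating-type loci, each strain's highest and lowest window, and the 3 largest rises and falls of each mutant in 5-kb tiles. The window calculation was tested on simulated data. In all, 13 alternatives were tried.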

Additional observations from a re-analysis of the deposited data

Results flagged for a closer look

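At some places WT and a mutant lay on opposite sides of 0 with both counting intervals clear of it. The difference itself was not tested, since each strain and time had 1 library, and the groups rest on labels that cross at LEU2. At ARS317, the origin of the HMR-E silencer, the mutants stood above 0 and WT below it, and the differences from WT were 0.30 in orc2ΔN200 and 0.405 in orc2-I194E. From ARS308 to ARS309, beside the centromere, the mutants stood below 0 and WT above it, with differences of -0.298 in orc2ΔN200 and -0.318 in orc2-I194E. The mutants again stood above 0 and WT below it from ARS316 to ARS317, with 0.228 in orc2ΔN200 and 0.361 in orc2-I194E, and from ARS318 to ARS319, with 0.324 in orc2ΔN200 and 0.365 in orc2-I194E. In the stretch from the left end to ARS301 this held for orc2-I194E, with 0.559, over 4 kept bins.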

How the results depend on the processing

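No paired analysis was possible because each strain and time had 1 library, so that no library could be left out or matched by number. Over 13 alternatives 840 values were recomputed. Of these, 680 moved by no more than their counting interval (for counts, by no more than 1.5 times) and 121 moved further. The other 39 turned their sign from a difference of at least 0.15 at a single place, or from another value past its interval. A change of sign in a smaller value was not counted as a turn. The 10 windows without overlap were added after seeing the data, and so was the local contrast, which is not among the 13. Where a value changed, the cause was not tested, other than through what the alternative itself exchanges or leaves out. Depth limits a single window to differences of about 2 times its SE of 0.074 to 0.095.

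Most turns came with the S libraries of orc2-I194E and WT exchanged. For orc2ΔN200 against WT the differences became 0.15 at ARS307, 0.017 at ARS309, -0.043 at ARS317, -0.063 at ARS318, 0.082 at CEN3 and -0.016 over the right 30 kb. In its stretches they became 0.035 from ARS308 to ARS309, -0.0058 from ARS310 to ARS313, -0.14 from ARS316 to ARS317 and -0.089 at the left end, and 0 windows were below WT. For orc2-I194E they became -0.035 at the ARS302 cluster, 0.17 at ARS306, 0.30 at ARS307, 0.30 at ARS309, -0.029 at ARS314, -0.19 at ARS316, -0.28 at ARS317, -0.30 at ARS318, 0.33 at CEN3 and -0.28 over the right 30 kb. In its stretches they became 0.35 from ARS308 to ARS309, -0.13 from ARS310 to ARS313, -0.37 from ARS316 to ARS317, -0.25 from ARS318 to ARS319 and -0.46 at the left end, and the median over windows 0.17. Class medians in orc2-I194E became 0.24 at CEN3, -0.057 at HMR, 0.30 on the left arm, 0.27 on the right arm and -0.035 for weak origins. In WT they became -0.075 at CEN3, 0.23 at HMR, 0.12 on the left arm, 0.0026 on the right arm and 0.036 for weak origins. Window medians became 0.20 in orc2-I194E and 0.036 in WT, the WT stretch median 0.14, and windows minus stretches 0.019 in orc2-I194E and -0.11 in WT.

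With the G1 libraries exchanged, the median difference over windows became 0.0047 in orc2ΔN200 and -0.17 in orc2-I194E, with 7 windows below and 3 above WT in orc2-I194E. Window medians became 0.036 in orc2-I194E and 0.20 in WT, stretch medians 0.14 in orc2-I194E and 0.18 in WT, and the WT arms 0.30 on the left and 0.27 on the right. One common G1 denominator gave window and stretch medians of 0.16 and 0.16 in WT, a stretch median of 0.17 in orc2-I194E, a median difference of -0.081 in orc2-I194E, 4 windows below WT in orc2ΔN200, and 5 below and 3 above in orc2-I194E.

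Shares over chromosome III alone, which set the chromosome's own mean to 0, gave window medians of -0.038 in orc2ΔN200, -0.011 in orc2-I194E and 0.022 in WT, and stretch medians of 0.022 in orc2ΔN200, 0.067 in orc2-I194E and -0.0013 in WT. The left arm became 0.073 in orc2ΔN200, -0.0040 in orc2-I194E and 0.14 in WT, and the right arm -0.081 in orc2ΔN200, -0.065 in orc2-I194E and 0.040 in WT. HMR became 0.080 in orc2ΔN200 and 0.14 in orc2-I194E, and weak origins -0.10 in orc2ΔN200 and -0.017 in orc2-I194E, with 5 windows below and 2 above WT in orc2-I194E. Scaling to the library median left 1 window below WT in orc2ΔN200.

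Each window was also placed at the highest 5 kb nearby in the mean profile of the 3 strains. That choice favours high window values in these same data, so it cannot show that origins exceed stretches. Window medians became 0.19 in orc2ΔN200 and 0.21 in orc2-I194E, and windows minus stretches 0.075 in orc2ΔN200 and 0.059 in orc2-I194E. In orc2-I194E the right arm became 0.21, weak origins 0.20, the stretch median 0.15 and the median difference 0.17, with 1 window below and 8 above WT. Windows of 11 kb gave medians of 0.16 in orc2ΔN200 and 0.16 in orc2-I194E, a median difference of 0.11 in orc2-I194E, a WT stretch median of 0.027, and windows minus stretches of 0.042 in orc2ΔN200, -0.023 in orc2-I194E and 0.073 in WT. Windows of 3 kb gave a median of 0.072 in orc2-I194E, a WT stretch median of 0.11 and a difference from WT of 0.23 at ARS313 in orc2ΔN200. Over the 10 windows without overlap the median difference was -0.022 in orc2ΔN200 and -0.063 in orc2-I194E, with 1 window above WT in orc2ΔN200 and 2 in orc2-I194E.

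Without the G1 filter the window median was 0.17 in orc2ΔN200, windows minus stretches 0.051 there, the median difference 0.12 in orc2-I194E, and 5 windows were above WT in orc2ΔN200. Leaving out the LEU2, Ty and mating-type bins gave HMR medians of 0.38 in orc2-I194E and -0.21 in WT, a WT stretch median of 0.13 and WT windows minus stretches of -0.028. A threshold of 0.1 gave 5 windows below WT in each mutant, and one of 0.2 gave 1 below in each and 2 above in orc2-I194E.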

Other observations

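In non-overlapping 5-kb tiles, 59 of 64 on chromosome III were measured, and the values here are as labelled. The lowest tiles of orc2ΔN200 against WT were at YCR006C with -0.32, at the septin gene CDC10 with -0.27 and at GBP2, which encodes an mRNA export protein, with -0.24. In orc2-I194E they were at SNR43, a small nucleolar RNA gene, with -0.31, at CDC10 with -0.30 and at the noncoding gene YNCC0005W with -0.30. All of these lie between 100001 and 130000, on either side of the centromere. The highest tiles of orc2ΔN200 were at YCR101C with 0.42, at YCL075W with 0.42 and at GIT1 with 0.38, and those of orc2-I194E were at YCL075W with 0.56, at LEU2 with 0.54 and at GIT1 with 0.50. Apart from LEU2, whose level crosses between labels, these lie at the 2 ends of the chromosome.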
